A study of Arabidopsis thaliana with 6 samples.

Results

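The plastid genome of Arabidopsis thaliana seeds was followed here through the transcripts of all 133 genes whose identifiers begin with ATCG, out of 32833 genes in the deposited table. They comprise 88 protein-coding entries, 37 transfer RNA (tRNA) genes and 8 ribosomal RNA (rRNA) genes. RNA-seq was made from freshly harvested seeds of the asf1a1b double mutant (3 libraries) and of wild-type Columbia-0 (Col-0, 3 libraries), both from soil-grown plants under long days. The asf1a1b mutant carries mutations in ASF1A and ASF1B, which encode the histone chaperone ASF1, a carrier of histones H3 and H4 that acts in the nucleus. The labels give neither the alleles nor the age of the plants, and they also mention stratification, so whether the sequenced seeds had been chilled is not settled. Separate plants or harvests for the 3 libraries are not stated, so p-values measure the spread between these libraries alone, which may be technical.

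The plastid genome is a small circular DNA, present in many copies per cell, which keeps genes for photosynthesis and for the plastid's own ribosomes and RNA polymerase. Its genes are read by a plastid-encoded, bacterial-type polymerase (PEP), which needs nuclear-encoded sigma factors and associated proteins, and by nuclear-encoded phage-type polymerases (NEP). Photosynthesis genes are known to depend mostly on PEP, and a few housekeeping genes, among them rpoB and accD, mostly on NEP. A maturing Arabidopsis embryo is green for a time and then loses its chlorophyll, so a dry seed holds undifferentiated plastids with little transcript.

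The 4.5S rRNA gene rrn4.5 is shown because its fold change on the log2(value + 1) scale was the largest of any plastid gene, and because it illustrates a limit of the data. In the RefSeq annotation of TAIR10.1 it lies on the plus strand of the plastid genome at Pltd:107599-107701, and a second, identical copy lies on the minus strand at Pltd:130948-131050. It belongs to the ribosomal RNA operon, which sits in a large inverted repeat of 26264 bases present at Pltd:84171-110434 and again at Pltd:128215-154478.
rrn4.5: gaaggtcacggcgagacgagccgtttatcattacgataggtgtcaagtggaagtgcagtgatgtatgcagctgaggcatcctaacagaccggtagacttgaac
A read from such a gene cannot be given to one copy. The 18 gene pairs of the repeat are listed as separate genes, and 46.2% to 56.1% of the reads of a pair stood on its first copy, so the paired entries are not independent of each other.

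Upstream sequences were read because PEP recognises bacterial-type promoters. The 250 bases before each of 131 annotated plastid genes in RefSeq TAIR10.1 were searched on the gene's own strand for TTGACA, a gap of 16 to 18 bases and TANNNT, where N is any base. The element was found in 7 windows (5.34%). They are given with the 2 hexamers in capitals, since psbA, the most abundant plastid messenger, is among the genes that carry them.
psbA: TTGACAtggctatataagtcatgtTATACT
trnK: TTGACAacagtgtatggaccaaaTATAAT
trnY and trnE: TTGACAatttaaaaaaactgatcaTACTAT
trnV: TTGACAagaaattatctacatgaTAAGAT
ycf1: TTGACAtaagagatgtcgtttcTAGTCT
The ycf1 element occurs before both copies of that gene, and trnY and trnE share 1 element because their windows overlap. The psbA element lies at Pltd:1530-1559 on the minus strand. A match is a description of letters and does not mark a working promoter, and other photosynthesis genes whose windows lack these exact letters are described below.

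The mutated genes were both weakly read in the mutant seeds. ASF1A stood at 2.52, 2.06 and 2.39 rescaled TPM across asf1a1b replicates 1, 2 and 3, against 17.8, 16.9 and 15.4 in Col-0, and ASF1B had 0.334, 0.157 and 0.276 in asf1a1b, against 4.36, 2.26 and 2.28 in Col-0. Rescaled TPM is the deposited unit, transcript abundance per length and library size with a further scaling between libraries that no source names. It is a value per length, so genes of different length can be compared as far as their RNA was captured alike. How far rRNA, tRNA and messengers were captured alike is not known. Reads recovered from the values numbered 42820280 to 56153012 per asf1a1b library and 44337807 to 48004216 per Col-0 library, over nuclear and plastid genes. The seed markers CRA1, CRU3, SESA1, OLEO1, EM1 and EM6 (storage proteins, an oil body protein and late embryogenesis proteins) summed to 67650 to 93260 rescaled TPM in asf1a1b and 65370 to 104900 in Col-0.

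Plastid transcripts were a small part of both transcriptomes and were more abundant in the mutant. Summed over the 133 genes they reached 1418, 2394 and 2945 rescaled TPM in asf1a1b replicates 1, 2 and 3, against 321.7, 913.5 and 887.2 in Col-0. The groups did not overlap, and the mean of 2252 ± 773 in asf1a1b was 3.18 times that of 707.5 ± 334 in Col-0 (SD, n = 3 each). In reads, the plastid share was 0.114%, 0.241% and 0.259% in asf1a1b and 0.022%, 0.0704% and 0.0748% in Col-0, with exact 95% Clopper-Pearson intervals of 0.113% to 0.115%, 0.24% to 0.243% and 0.258% to 0.26% in asf1a1b and of 0.0216% to 0.0224%, 0.0696% to 0.0712% and 0.0741% to 0.0756% in Col-0. The intervals cover counting error only. Replicate 1 held the lowest plastid share in each genotype, and same-numbered libraries gave ratios of 4.41, 2.62 and 3.32 for replicates 1, 2 and 3. In whole seeds, more plastid RNA per cell, more plastids and more cells with active plastids cannot be told apart. How RNA was selected is not given in the sources used here. A difference between library preparations in the plastid RNA retained therefore cannot be told apart from these either.

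The mitochondrial genome, the other organelle genome in the table (152 genes), stood at 4038, 5342 and 5479 rescaled TPM in asf1a1b and 2341, 2396 and 3585 in Col-0, 1.79 times higher in the mutant. The plastid ratio was larger than the mitochondrial one in each of the 3 same-numbered pairs, where the mitochondrial ratios were 1.73, 2.23 and 1.53.

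In each same-numbered pair, more of the plastid genes were also detected in the mutant library. In asf1a1b, 7, 4 and 3 of the 133 genes were listed at 0 in replicates 1, 2 and 3, against 16, 7 and 7 in Col-0. A value of at least 1 was reached by 85, 94 and 100 genes in asf1a1b and by 48, 77 and 80 in Col-0. Only trnfM, the initiator tRNA gene, was listed at 0 in all 6 libraries. The recovered plastid reads numbered 48865, 135547 and 136756 in asf1a1b and 10560, 31208 and 35478 in Col-0. These counts thus compare unequal plastid depths and restate the higher plastid total rather than add to it. The share of all genes detected was not computed.

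**Figure D1:**
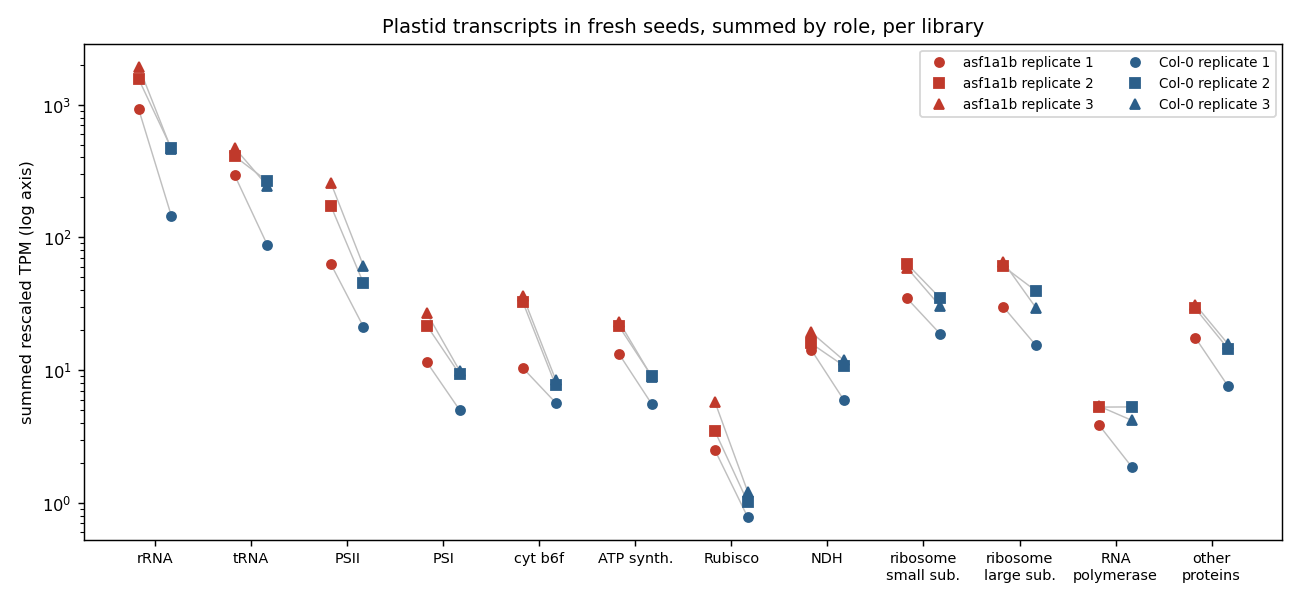
Summed rescaled TPM of the plastid genes of each role in each of the 6 libraries, on a log axis, with asf1a1b in red and Col-0 in blue and a line joining libraries of the same replicate number. Ribosomal RNA reached 922 to 1938 in asf1a1b and 145.1 to 469.1 in Col-0, whereas RNA polymerase genes overlapped, at 3.84 to 5.35 in asf1a1b and 1.86 to 5.29 in Col-0.

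For the test, genes averaging 1 or more across all 6 libraries were compared on the log2(value + 1) scale with limma, with Benjamini-Hochberg adjustment over all 14663 tested genes and a threshold of 0.05. Of the 133 plastid genes 97 entered the test. Of these, 33 were higher in asf1a1b, 0 were lower and 64 did not pass, which is 34.0% higher, where 16.1% of all tested genes were called higher and 14.5% lower. None was lower at an unadjusted p under 0.05 either, and a limma-voom fit on the recovered reads called 29 higher and 0 lower, where it called 16.2% and 15.3% of all genes. With the repeat copies summed, 28 of 84 genes were higher and 0 lower, where 16.1% and 14.6% of all genes were called. The median log2 fold change was 0.75 over the tested plastid genes and 0.01 over all tested genes. The members were taken as a whole genome and not by their values, but the tested ones had to reach the mean of 1, which genes high in only 1 genotype could reach through that genotype.

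The count depends on single libraries and on whether same-numbered libraries are taken as pairs, which the labels do not state. With the replicate number as a block, 62 of the 97 were higher and 0 lower (63.9%, where 20.9% of all tested genes were higher and 18.8% lower), and all 33 genes called without the block were among them. Leaving out asf1a1b replicate 2 left 9 calls and leaving out asf1a1b replicate 3 left 8, where the share of all tested genes called higher was 9.27% and 7.15%, so the plastid share of the calls was then near the background. Leaving out asf1a1b replicate 1 gave 55 calls, where 17.4% of all tested genes were called higher, and leaving out Col-0 replicate 2 gave 21, where 8.27% were. Leaving out both replicate 1 libraries gave 69 higher and 1 lower, with 26.5% and 25.0% of all tested genes called. The 8 entries that passed in all 6 fits with 1 library left out were rbcL, psbE, psbJ, psbL, psbN, petB and both copies of rrn4.5. The share of all tested genes that passed in all 6 was not computed, so this count stands without a background. Of the 33 called genes, 12 had fewer than 10 reads in at least 1 library.

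Direction was more uniform than the calls. The mean was higher in asf1a1b for 122 of the 133 genes and lower for 10. The groups did not overlap for 53 genes in the higher direction and 1 in the lower, where 23.7% and 15.4% of all genes with a value did so. All 3 same-numbered pairs were higher in the mutant for 80 genes. No share over all genes was computed for the higher means or for the 3 pairs, so those counts stand without a background. Among the 97 tested, the groups did not overlap for 45 genes in the higher direction and 0 in the lower, where 24.6% and 22.9% of all tested genes did so. The 36 genes below the filter comprised 29 with a higher mean in asf1a1b, 6 with a lower one and trnfM. One of them, trnQ, was the only plastid gene whose groups separated in the lower direction, on 1 read in asf1a1b and 4 reads in Col-0.

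**Figure D2:**
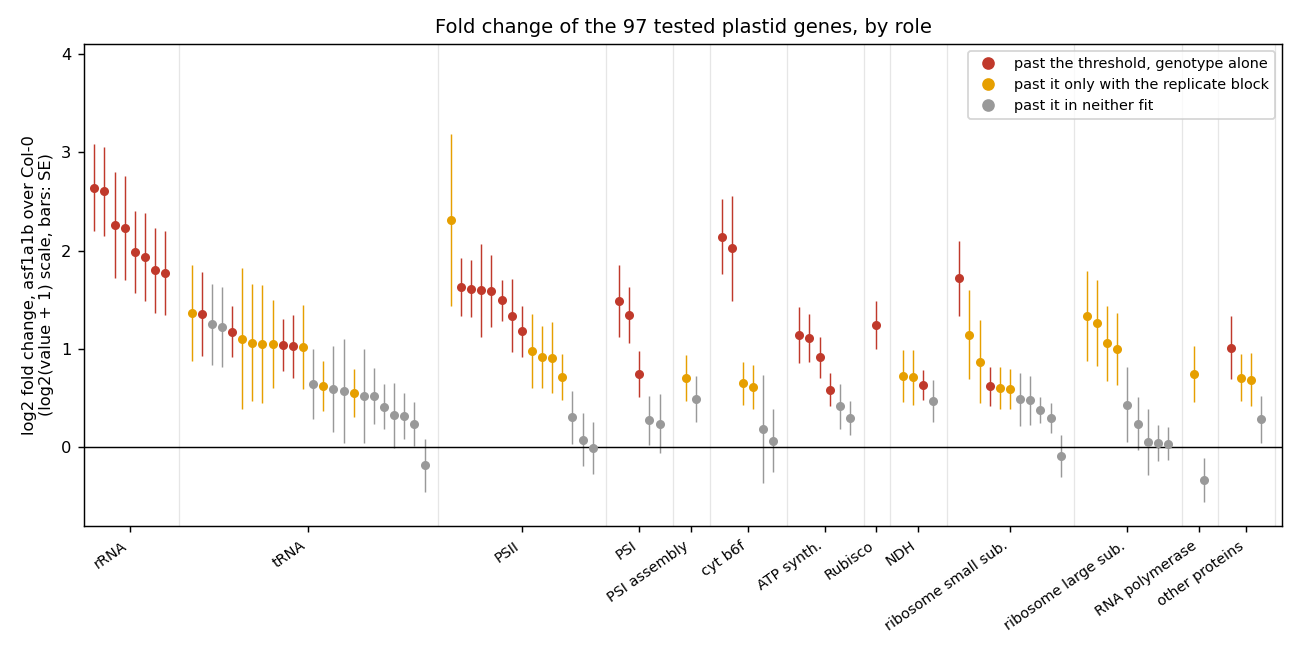
Log2 fold change (asf1a1b over Col-0, log2(value + 1) scale) with its standard error for each of the 97 tested plastid genes, ordered within each role, with red for genes past the threshold in the fit with genotype alone, orange for those past it only with the replicate block and grey for the rest. All 8 ribosomal RNA entries lie between 1.78 and 2.64, and the lowest value is that of rpoB at -0.34.

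Ribosomal RNA rose for every gene of the operon, and made up most of the summed plastid level in all libraries except Col-0 replicate 1, where its share was 45.1%. The operon encodes the 16S RNA of the small ribosomal subunit and the 23S, 4.5S and 5S RNAs of the large one. All 8 entries, a pair of copies for each of 4 genes, were past the threshold with and without the block. Of all tested genes 20.9% were higher with the block and 16.1% without it. Copy 1 of rrn4.5 (ATCG00960) had 104.3, 145.5 and 208 rescaled TPM in asf1a1b, against 10.9, 39.9 and 26.3 in Col-0, which gave 2.64 ± 0.44 as log2 fold change (± SE here and below, limma adjusted p = 0.00579). Each asf1a1b value lay above each Col-0 value.
Copy 1 of rrn23 (ATCG00950), the 23S gene, had 158, 374.1 and 411 rescaled TPM in asf1a1b, against 26, 86.6 and 93.9 in Col-0, a log2 fold change of 2.26 ± 0.54 (limma adjusted p = 0.019). Copy 1 of rrn16 (ATCG00920), the 16S gene, had 195, 251 and 341 in asf1a1b, against 34.2, 105.4 and 105.6 in Col-0, a log2 fold change of 1.80 ± 0.43 (limma adjusted p = 0.0194). Replicate 1 was the lowest library of each genotype for both genes, and asf1a1b replicate 1 still exceeded all 3 Col-0 libraries. The 5S gene rrn5 was read far less, at 5.02, 8.26 and 13.4 in asf1a1b and 0.733, 0.754 and 3.73 in Col-0 for copy 1 (log2 fold change 1.93 ± 0.45, limma adjusted p = 0.0173). With the copies summed to 1 gene each, the 4 log2 fold changes were 1.80 for rrn16, 2.26 for rrn23, 2.65 for rrn4.5 and 2.26 for rrn5, and all 4 remained past the threshold. The reads on rRNA numbered 44185 to 120684 per asf1a1b library and 8567 to 30211 per Col-0 library. Whether RNA was selected by its poly(A) tail or by removing rRNA is not given in the sources used here, and either step alters how much rRNA is read.

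Transfer RNA genes took 16% to 20.7% of the summed plastid level in asf1a1b and 27.2% to 29% in Col-0, most of it from a pair of genes inside the rRNA operon. These genes are short, and the level is per length. By reads they held only 0.919% to 1.31% of the plastid reads in asf1a1b and 1.81% to 2.08% in Col-0. The spacer between rrn16 and rrn23 holds intron-containing trnI and trnA genes, for isoleucine and alanine. Copy 1 of this trnI had 82.8, 105.3 and 122 rescaled TPM in asf1a1b, against 22.7, 76.7 and 70.7 in Col-0. The groups did not overlap, but the log2 fold change of 1.02 ± 0.43 did not pass (limma adjusted p = 0.109, and 0.0226 with the block). Copy 1 of trnA, at 35.1, 51.1 and 55 in asf1a1b and 7.99, 30.4 and 21.3 in Col-0, was past the threshold (log2 fold change 1.35 ± 0.43, limma adjusted p = 0.0471). Copy 2 of trnA, with the same sequence and a nearly equal fold change of 1.36, was not (limma adjusted p = 0.0679), and with the copies summed trnA did not pass (limma adjusted p = 0.0581).

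Of the 24 tested tRNA genes, 4 were higher in asf1a1b and none was lower. That is 16.7%, close to the 16.1% of all tested genes called higher. With the block 12 of the 24 were higher, where 20.9% of all tested genes were. The 3 called beside trnA were trnW and trnP, neighbours for tryptophan and proline, and a serine tRNA gene, ATCG00290. The tryptophan gene trnW had 1.83, 3.86 and 2.64 rescaled TPM in asf1a1b, against 0.4, 1.23 and 0.381 in Col-0 (log2 fold change 1.18 ± 0.26, limma adjusted p = 0.015), on 23 reads in asf1a1b and 5 in Col-0. As background, mature tRNAs are short and modified and are poorly captured by standard libraries. The trnE gene, whose tRNA also feeds the synthesis of chlorophyll and heme precursors, had 0, 0.326 and 0.382 in asf1a1b and 0 in each Col-0 library. The genes that carry the bacterial-type element shown above differed among themselves. The trnK gene stood at 4.76, 3.69 and 3.14 in asf1a1b against 2.08, 4.29 and 3.18 in Col-0 (log2 fold change 0.24 ± 0.22, limma adjusted p = 0.444), and its groups overlapped. The valine gene trnV (ATCG00450) had 6.75, 8.88 and 10.4 in asf1a1b against 3.55, 6.49 and 7.14 in Col-0. Its groups overlapped too, but all 3 same-numbered pairs were higher in the mutant and it passed with the block (log2 fold change 0.55 ± 0.25, limma adjusted p = 0.126, and 0.0173 with the block).

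The photosystem II genes, for the complex that oxidises water, included the most abundant plastid messenger. Of 15 genes, all tested, 7 were higher in asf1a1b and 12 with the block, with a median log2 fold change of 1.18. Of all tested genes 16.1% were higher, and 20.9% with the block. The gene psbA (ATCG00020, Pltd:383-1444, minus strand, 1 exon) encodes the D1 reaction centre protein. It had 26.8, 120.4 and 182 rescaled TPM in asf1a1b, against 4.37, 22.7 and 38.8 in Col-0. The groups overlapped, since asf1a1b replicate 1 lay below Col-0 replicate 3, and the log2 fold change of 2.31 ± 0.87 did not pass (limma adjusted p = 0.0808). It depended on single libraries, at 1.47 without Col-0 replicate 1, 2.92 without Col-0 replicate 3 and 3.12 without asf1a1b replicate 1, and only the fit without asf1a1b replicate 1 called it.

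Within same-numbered libraries the psbA ratio was steady, at 6.13, 5.3 and 4.68 for replicates 1, 2 and 3, and with the block psbA passed (limma adjusted p = 0.000814). Replicate 1 was the lowest psbA library of each genotype. Reads on psbA numbered 843, 5373 and 6921 in asf1a1b and 157, 792 and 1461 in Col-0. They made up 20.9%, 39.5% and 46.0% of the plastid protein-coding reads in asf1a1b and 8.86%, 20.6% and 31.6% in Col-0.

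The psbD operon joins genes for the D2 reaction centre protein (psbD), an antenna protein (psbC) and a small subunit (psbZ). The psbC gene had 4.18, 12.2 and 16.5 rescaled TPM in asf1a1b, against 1.19, 2.95 and 4.01 in Col-0, and rose (log2 fold change 1.59 ± 0.48, limma adjusted p = 0.0398). The psbD gene had 1.69, 4.03 and 4.39 in asf1a1b, against 0.585, 1.75 and 1.49 in Col-0, and did not pass (0.92 ± 0.32, limma adjusted p = 0.0617, and 0.00543 with the block). Its groups overlapped only through asf1a1b replicate 1 and Col-0 replicate 2. The annotated spans of psbD and psbC share 53 bases.

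The genes of the psbE operon, for cytochrome b559 and small photosystem II subunits, separated the genotypes more cleanly. The first of them, psbE, which encodes a cytochrome b559 subunit, had 3.08, 3.12 and 5.53 rescaled TPM in asf1a1b, against 0.704, 0.845 and 0.559 in Col-0 (log2 fold change 1.50 ± 0.21, limma adjusted p = 0.00315). The last of them, psbJ, had 5.77, 6.96 and 8.84 in asf1a1b, against 0.962, 1.24 and 3.21 in Col-0 (log2 fold change 1.61 ± 0.29, limma adjusted p = 0.00754). For psbE, unlike psbA, replicate 1 was not the lowest Col-0 library. The small subunit gene psbL rose as well (1.63 ± 0.30, limma adjusted p = 0.00747), on 44 reads in asf1a1b and 5 in Col-0. The gene psbF, next to psbE and encoding the other cytochrome b559 subunit, did not pass (0.98 ± 0.38, limma adjusted p = 0.0841, and 0.0141 with the block).

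The psbB operon joins photosystem II genes to cytochrome b6f genes and showed the highest ratio of the operons examined. Its summed level was 10.2, 31.6 and 39.4 rescaled TPM in asf1a1b, against 1.5, 5.26 and 5.14 in Col-0, 6.82 times higher in the mutant, with same-numbered ratios of 6.79, 6 and 7.66. Of its 5 genes psbB, psbT, psbH, petB and petD, 4 were higher and 5 with the block. Of all tested genes 16.1% were higher, and 20.9% with the block. The antenna protein gene psbB (Pltd:72371-73897, plus strand) had 1.79, 4.57 and 6.99 in asf1a1b, against 0.329, 0.717 and 0.979 in Col-0 (log2 fold change 1.59 ± 0.37, limma adjusted p = 0.0164). The gene psbN, known from tobacco as an assembly factor of photosystem II, lies within this operon on the opposite strand (Pltd:74249-74380) and was also higher (1.18 ± 0.26, limma adjusted p = 0.0136), on 26 reads in asf1a1b and 3 in Col-0. The strand setting is not known, so reads of psbN and of the operon transcript that runs across it cannot be told apart.

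Among the 6 cytochrome b6f genes, 2 were higher and 4 with the block, where 16.1% and 20.9% of all tested genes were. The complex passes electrons from photosystem II to photosystem I. Its gene petB, for cytochrome b6, had 3.39, 9.84 and 11.6 rescaled TPM in asf1a1b, against 0.548, 1.22 and 1.04 in Col-0, the largest ratio of means of any plastid gene with a value in Col-0, at 8.83. The log2 fold change was 2.14 ± 0.38 (limma adjusted p = 0.00706), and each asf1a1b library exceeded every Col-0 library. The adjacent petD, for subunit IV, had 2.8, 12.6 and 14.7 in asf1a1b, against 0.49, 1.76 and 1.93 in Col-0 (2.02 ± 0.54, limma adjusted p = 0.0266, and 2.67 as log2 fold change without asf1a1b replicate 1). The genes petA, petG, petL and petN lie outside this operon and did not pass, with log2 fold changes of 0.65, 0.62, 0.19 and 0.07, and petA and petG passed with the block (limma adjusted p = 0.0218 and 0.0232).

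Photosystem I genes split by operon. The reaction centre genes psaA and psaB share an operon with rps14, for a small-subunit ribosomal protein. All 3 were higher, where 16.1% of all tested genes were. The psaA gene (Pltd:39605-41857, minus strand) had 2.2, 5.29 and 5.59 rescaled TPM in asf1a1b, against 0.722, 1.01 and 1.34 in Col-0 (log2 fold change 1.34 ± 0.29, limma adjusted p = 0.0128), and psaB stood at 2.21, 6.29 and 8.26 in asf1a1b, against 0.831, 1.19 and 1.43 in Col-0 (1.49 ± 0.37, limma adjusted p = 0.0208). No values of the genotypes overlapped for either gene. The ribosomal gene rps14 had 2.9, 8.01 and 9.85 in asf1a1b, against 0.781, 1.11 and 1.86 in Col-0 (1.72 ± 0.38, limma adjusted p = 0.0142), the largest fold change of the ribosomal protein genes. Of the remaining photosystem I genes, psaJ passed (0.75 ± 0.23, limma adjusted p = 0.0469), and psaI and psaC, at 0.24 and 0.28, did not. The assembly factor genes ycf3 and ycf4 had log2 fold changes of 0.71 and 0.49 and did not pass, and ycf3 passed with the block (limma adjusted p = 0.0117).

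The large subunit of the carbon-fixing enzyme Rubisco is encoded by rbcL (ATCG00490, Pltd:54958-56397, plus strand, 1 exon). It had 2.49, 3.45 and 5.73 rescaled TPM in asf1a1b, against 0.78, 1.01 and 1.21 in Col-0. The lowest asf1a1b library was above the highest Col-0 library, and the log2 fold change was 1.24 ± 0.24 (limma adjusted p = 0.00963). Both genotypes had rbcL at a small fraction of the psbA level.

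The 6 ATP synthase genes stand in a pair of operons. Of the 6, all tested, 4 were higher (66.7%, where 16.1% of all tested genes were). Of atpI, atpH, atpF and atpA, for 2 membrane subunits of the proton channel, its stator and the catalytic head, 3 rose, namely atpA (log2 fold change 1.15 ± 0.28, limma adjusted p = 0.0213), atpH (1.11 ± 0.25, limma adjusted p = 0.0147) and atpF (0.91 ± 0.21, limma adjusted p = 0.0161). The atpI gene, which follows rps2 in that operon, stood at 1.35, 1.17 and 1.93 rescaled TPM in asf1a1b and 0.946, 1.3 and 0.79 in Col-0 and did not pass (limma adjusted p = 0.219, and 0.235 with the block). In the other operon atpB, for a head subunit, was higher at 1.2, 1.46 and 1.57 in asf1a1b against 0.336, 0.813 and 0.697 in Col-0 (0.58 ± 0.17, limma adjusted p = 0.0346), and atpE at 0.42 was not called.

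Genes of the NAD(P)H dehydrogenase complex, which cycles electrons around photosystem I, were low in both genotypes. Of 12 entries only 4 reached the filter, and 1 of these was higher (25.0%, where 16.1% of all tested genes were). Only ndhD was higher, at 1.82, 1.77 and 1.87 rescaled TPM in asf1a1b against 0.544, 1.1 and 0.853 in Col-0 (log2 fold change 0.63 ± 0.16, limma adjusted p = 0.0209), and both copies of ndhB passed with the block (limma adjusted p = 0.00937 and 0.00912). The largest gene of the complex, ndhF, had 0.256, 0.244 and 0.212 in asf1a1b and 0.132, 0.299 and 0.252 in Col-0. Its means of 0.237 and 0.228 in asf1a1b and Col-0 differed by less than the spread of the libraries.

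Few genes for ribosomal proteins passed the threshold. Of 26 entries 20 were tested, and 2 were higher, rps14 among them, where 16.1% of all tested genes were higher. With the block 10 of the 20 were higher, where 20.9% of all tested genes were. The median log2 fold change was 0.54, against 0.92 for the 33 photosynthesis genes, of which 17 were higher and 24 with the block. The rpl23 operon, a cluster inherited from bacteria, was 1.54 times higher in the mutant by its summed level, with 25.1, 43 and 42 rescaled TPM in asf1a1b and 13.5, 35.2 and 23 in Col-0. The groups overlapped. Within it, rpl16 stood at 4.14, 4.49 and 3.55 in asf1a1b and 3.48, 5.07 and 3.39 in Col-0 (log2 fold change 0.04 ± 0.17, limma adjusted p = 0.889), and rps3, rpl14 and rpl22 had log2 fold changes of -0.09, 0.06 and 0.05. In the part of that operon inside the inverted repeat, rpl2 reached 0.996 and 1.06 for its copies and passed only with the block (limma adjusted p = 0.00424 and 0.00306). Outside it, rpl20, rpl33 and rps18, which neighbour each other, had log2 fold changes of 1.33, 1.26 and 1.15 and likewise passed only with the block (limma adjusted p = 0.0026, 0.00181 and 0.00278).

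Of the 4 genes for subunits of the plastid-encoded RNA polymerase, 2 were tested and neither passed, and 1 passed with the block. Of all tested genes 16.1% were higher, and 20.9% with the block. The rpoB gene, for the beta subunit, was one of 4 tested plastid genes with a lower mean in the mutant. It had 1.24, 0.783 and 0.667 rescaled TPM in asf1a1b and 0.799, 2.03 and 1.45 in Col-0 (log2 fold change -0.34 ± 0.22, limma adjusted p = 0.28, and 0.282 with the block). The 3 same-numbered ratios were 1.55, 0.385 and 0.459, so replicate 1 ran against the other two, and without both replicate 1 libraries rpoB was called lower (log2 fold change -0.66, limma adjusted p = 0.00722). The co-transcribed rpoC1 and rpoC2 were below the filter, at means of 0.762 and 0.485 in asf1a1b and 0.737 and 0.406 in Col-0. The alpha subunit gene rpoA, which lies apart from them, had 1.6, 2.98 and 3.44 in asf1a1b against 0.478, 1.57 and 1.57 in Col-0 and passed only with the block (log2 fold change 0.75 ± 0.28, limma adjusted p = 0.0826, and 0.00818 with the block).

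Among the remaining protein-coding genes clpP was the most abundant. It encodes the catalytic subunit of the Clp protease and had 8.63, 19 and 18 rescaled TPM in asf1a1b, against 4.45, 7.72 and 8.4 in Col-0 (log2 fold change 1.01 ± 0.32, limma adjusted p = 0.0482). Its groups did not overlap, although asf1a1b replicate 1 was close to the highest Col-0 library. The gene accD, for a subunit of the enzyme that starts fatty acid synthesis, was below the filter, with 0.737, 0.827 and 0.95 in asf1a1b and 0.121, 0.498 and 0.423 in Col-0. The giant genes ycf2 and ycf1, for large proteins linked to protein import, were also below it. Copy 1 of ycf2 had 0.525, 0.75 and 0.911 in asf1a1b and 0.253, 0.522 and 0.52 in Col-0. The longer ycf1 entry had means of 0.387 ± 0.014 in asf1a1b and 0.371 ± 0.086 in Col-0, and the shorter one 0.896 ± 0.122 in asf1a1b and 0.568 ± 0.084 in Col-0 (SD, n = 3 each). Without the filter on low values 29 of 132 plastid genes were higher and 0 lower, where 12.0% and 7.64% of all genes were called. In that fit accD, matK, ccsA and ndhJ were called higher (log2 fold changes 0.46, 0.46, 0.33 and 0.48, limma adjusted p = 0.0474, 0.0395, 0.0181 and 0.0437).

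For 17 entries the polymerase known to read them was used to form 2 classes. The 9 genes taken as typical of PEP, psbA, psbB, psbC, psbD, psaA, psaB, petB, petD and rbcL, had ratios of means from 2.65 to 8.83, with a median of 4.86. All 9 were higher in all 3 same-numbered pairs, 7 passed the threshold and 9 passed it with the block. Of all tested genes 16.1% were called higher, and 20.9% with the block. The 8 entries taken as typical of NEP were rpoB, rpoC1, rpoC2, accD and both entries each of ycf1 and ycf2. They had ratios from 0.627 to 2.41, with a median of 1.39, and only rpoB was abundant enough to be tested. Of these 8, 5 were higher in all 3 same-numbered pairs. The groups did not overlap in the higher direction for 4 of the 8 and for 7 of the 9 PEP-class genes, where 23.7% of all genes with a value did so. The gene clpP, with a ratio of 2.22, was placed in neither class. The ratios of means of the classes nearly met, at 2.41 for accD and 2.65 for psbD. Within same-numbered pairs they overlapped, since the accD ratio of replicate 1 was 6.09, above that of 7 of the 9 PEP-class genes, where Col-0 replicate 1 had 6 reads on accD. The classes were assigned from general knowledge of plant plastids, and their ratios are a description with no test.

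The summed PEP-class level over the summed NEP-class level was 9.15, 30.6 and 42 in asf1a1b replicates 1, 2 and 3, against 3.26, 5.56 and 10.5 in Col-0. This within-library ratio does not depend on how libraries are scaled. It was higher in the mutant in each same-numbered pair, by 2.8, 5.5 and 3.98 times, but the groups overlapped, asf1a1b replicate 1 lying below Col-0 replicate 3. The NEP sum overlapped, at 5.2, 5.84 and 6.09 rescaled TPM in asf1a1b and 3.02, 6.18 and 4.96 in Col-0. In each library psbA was the largest single term of the PEP sum.

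**Figure D3:**
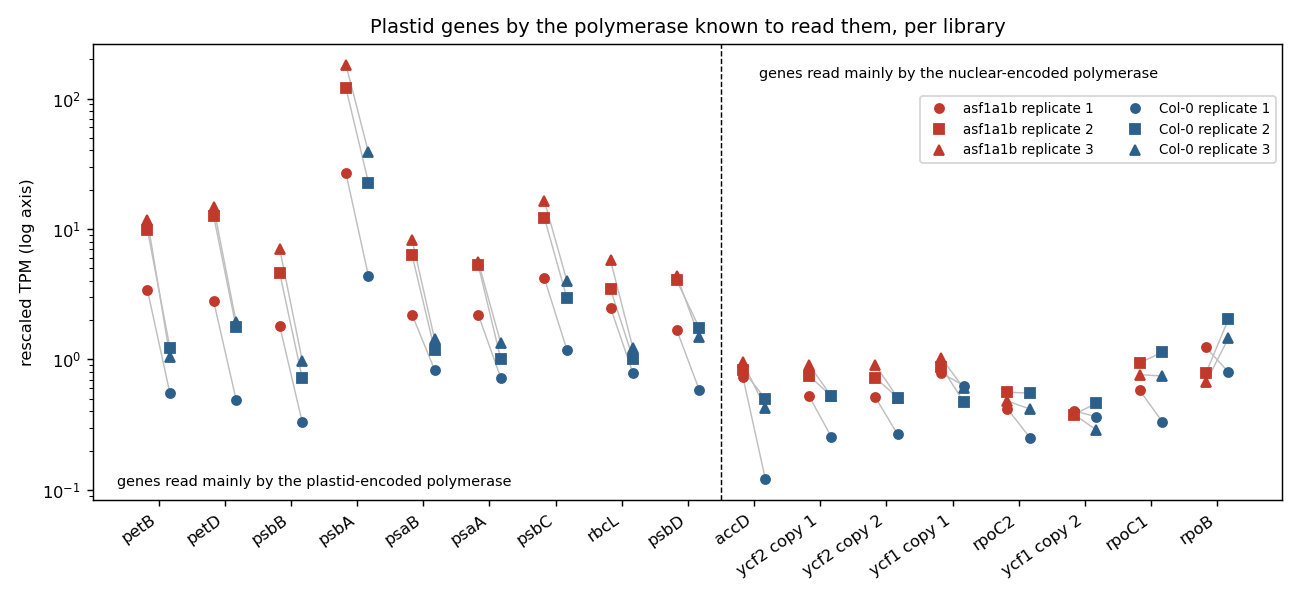
Rescaled TPM on a log axis of the 9 genes read mainly by the plastid-encoded polymerase (left of the dashed line) and the 8 entries read mainly by the nuclear-encoded polymerase (right), with asf1a1b in red, Col-0 in blue, 1 symbol per replicate number and a line joining each number. Every line of the left set falls toward Col-0, and the lines of rpoB cross, with asf1a1b replicates 2 and 3 at 0.783 and 0.667 below Col-0 at 2.03 and 1.45.

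The make-up of the plastid transcripts also differed. Ribosomal RNA took 65%, 65% and 65.8% of the summed plastid rescaled TPM in asf1a1b, against 45.1%, 51.3% and 51.8% in Col-0, with no overlap. Transfer RNA took 20.7%, 17.1% and 16% in asf1a1b and 27.2%, 29% and 27.5% in Col-0, and protein-coding genes took 14.3%, 18% and 18.2% in asf1a1b and 27.7%, 19.6% and 20.7% in Col-0. The summed rRNA level was 4.54, 3.62 and 3.62 times the protein-coding level in asf1a1b and 1.63, 2.61 and 2.5 times in Col-0. By reads, which weigh long genes more, rRNA held 88.1% to 90.4% of the plastid reads in asf1a1b and 81.1% to 85.6% in Col-0.

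With every library scaled to the same plastid total, 0 plastid genes were higher and 9 of 97 were lower in asf1a1b, where 0.552% of all tested genes were called higher and 67.9% lower. These were rpoB, psbM, psbK, petN, rps3, rpl14, rpl16, rpl22 and a serine tRNA gene, ATCG00370, with log2 fold changes from -0.96 for psbK to -1.59 for psbM. As shares of the plastid pool these genes were lower in the mutant, whereas as deposited none of them passed. The psbM gene, for a small photosystem II subunit, had 11.3, 6.12 and 8.23 rescaled TPM in asf1a1b and 10.7, 9.56 and 5.64 in Col-0, a ratio of 0.989. Scaled to the protein-coding plastid genes instead, by median of ratios, 15 genes were higher and 1, rpoB, was lower (log2 fold change -0.82, limma adjusted p = 0.037), where 2.0% of all tested genes were called higher and 36.5% lower. The 15 comprised psbA, psbB, psbE, psbL, psbN, psbT, petB, petD, rps14 and 6 rRNA entries, those of rrn4.5, rrn5 and rrn23. That scaling and the one to the plastid total were set by the members themselves, and under them the median log2 fold change of all tested genes was -0.86 and -1.57, against 0.01 as deposited.

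**Figure D4:**
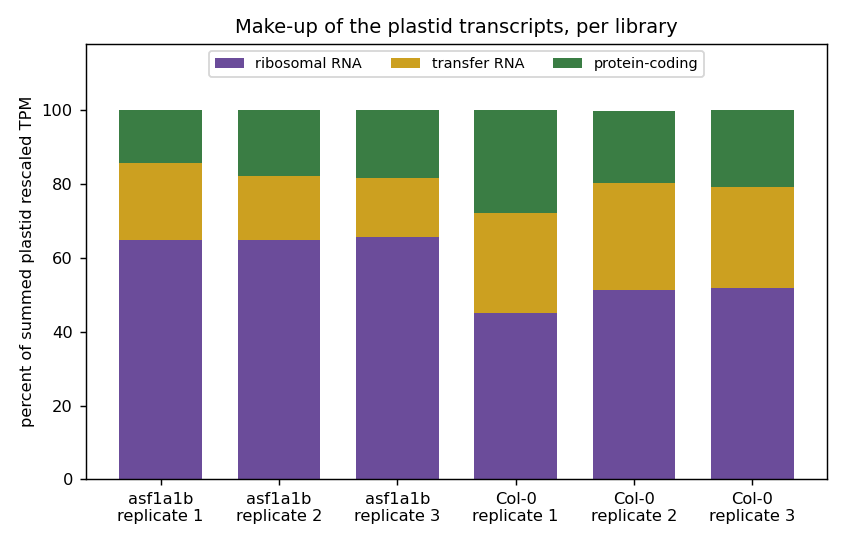
Stacked bars of the percent of summed plastid rescaled TPM taken by ribosomal RNA, transfer RNA and protein-coding genes in each library, with the 3 asf1a1b libraries on the left and the 3 Col-0 libraries on the right. Ribosomal RNA takes 65% to 65.8% in asf1a1b and 45.1% to 51.8% in Col-0.

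Nuclear genes for plastid functions did not move in 1 direction. The list of nuclear genes for the plastid transcription machinery held 23 genes, sigma factors, phage-type polymerases, PEP-associated proteins and DNA-binding proteins. Of 22 tested, 1 was higher, 9 were lower and 12 did not pass, where 16.1% of all tested genes were higher and 14.5% lower. The list had a median log2 fold change of -0.35 and a summed level of 245, 227 and 216 rescaled TPM in asf1a1b against 325, 301 and 313 in Col-0. The one that rose was SIG5, a sigma factor known from stress and light responses and from psbD transcription, with 4.04, 3.31 and 3.27 in asf1a1b against 1.62, 1.81 and 1.74 in Col-0 (log2 fold change 0.73 ± 0.13, limma adjusted p = 0.0072). Those that fell included PAP5 (-1.19 ± 0.25, limma adjusted p = 0.012), FLN2 (-1.14 ± 0.16, limma adjusted p = 0.00321) and TRXZ (-1.13 ± 0.14, limma adjusted p = 0.00227), proteins attached to PEP. Also lower was RPOTP, the plastid phage-type polymerase, with 9.21, 10.4 and 6.78 in asf1a1b against 17.8, 17.5 and 18.5 in Col-0 (-0.97 ± 0.16, limma adjusted p = 0.00512). The sigma factor SIG6 was lower too (-0.61 ± 0.14, limma adjusted p = 0.0152). SIG2, SIG3 and SIG4 did not pass, and SIG1 was not tested.

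In the list for plastid RNA maturation and decay, 0 of 20 tested genes were higher, 9 were lower and 11 did not pass, where 16.1% of all tested genes were higher and 14.5% lower. With the block 1 was higher and 10 were lower (20.9% and 18.8% of all tested genes). On the log2(value + 1) scale the largest decrease was in CP31B, an RNA-binding protein of plastid messengers, with 17.8, 16.7 and 15.8 rescaled TPM in asf1a1b against 39.9, 39.8 and 39 in Col-0 (log2 fold change -1.19 ± 0.10, limma adjusted p = 0.000827). The exonuclease gene PNP, for the polynucleotide phosphorylase that trims and degrades plastid RNA, was lower too (-0.57 ± 0.15, limma adjusted p = 0.0281), as was RAP (-1.06 ± 0.16, limma adjusted p = 0.0045), which acts in maturation of the 16S rRNA. By ratio of means the decrease of RAP was the larger, at 0.381 against 0.424 for CP31B. Leaving out asf1a1b replicate 3 left 4 lower genes in the first list and 3 in the second, leaving out asf1a1b replicate 2 left 3 in the second, and leaving out Col-0 replicates 2 and 3 left 4 and 5 there. The share of all tested genes called lower was 5.41%, 7.11%, 6.14% and 10.3% without asf1a1b replicate 3, asf1a1b replicate 2, Col-0 replicate 2 and Col-0 replicate 3.

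Some nuclear photosynthesis genes, which also serve as markers of green tissue, were higher in the mutant. The listed genes summed to 69.3, 129 and 121 rescaled TPM in asf1a1b, against 25.4, 34.8 and 31 in Col-0, 3.5 times higher in the mutant without overlap. Of 15 genes, 10 were tested, 4 were higher, 0 were lower and 6 did not pass, where 16.1% of all tested genes were higher and 14.5% lower. RBCS1A made up most of the sum in each asf1a1b library. This gene, for a Rubisco small subunit, had 49.3, 72.5 and 91.3 in asf1a1b, against 8.98, 23.2 and 18.3 in Col-0 (log2 fold change 2.07 ± 0.35, limma adjusted p = 0.00581). The antenna gene LHCA1 (1.82 ± 0.33, limma adjusted p = 0.00747), the water-splitting complex gene PSBO1 (1.40 ± 0.30, limma adjusted p = 0.0129) and the antenna gene LHCB3 (1.07 ± 0.31, limma adjusted p = 0.0349) rose as well. The antenna gene LHCB1.1, abundant in leaves, reached at most 1.78 in asf1a1b and 0.064 in Col-0. The part of green tissue in the plastid result was not tested.

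**Figure D5:**
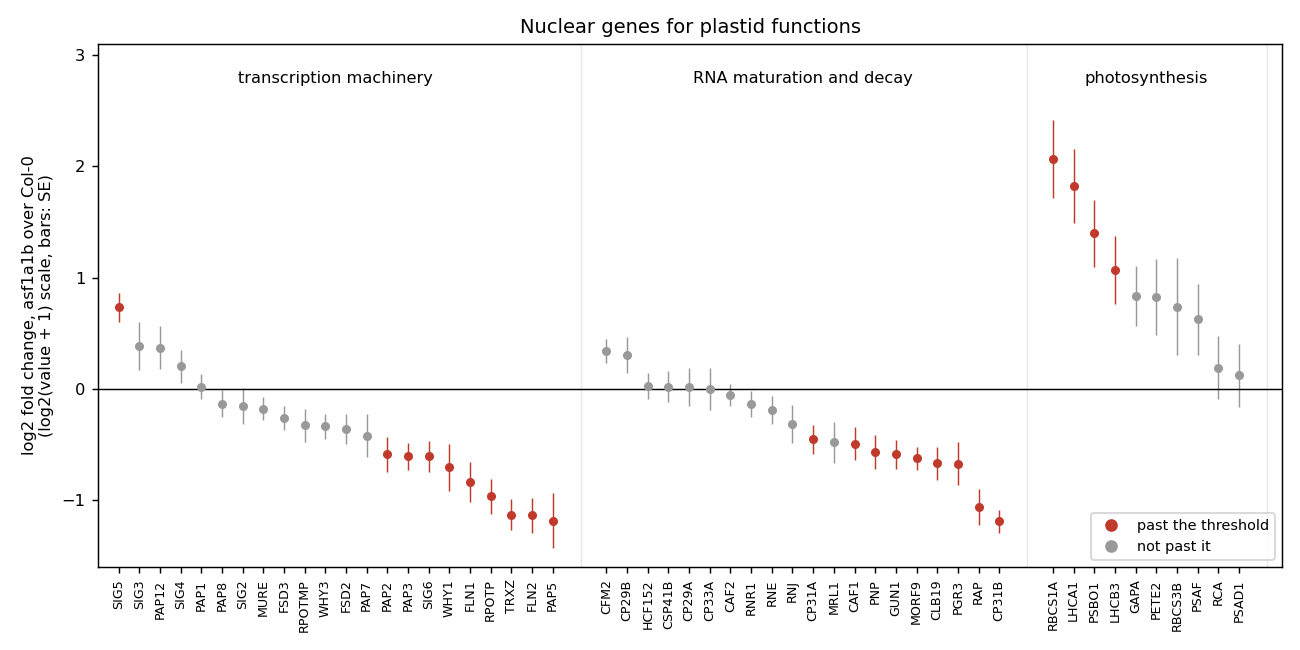
Log2 fold change (asf1a1b over Col-0, log2(value + 1) scale) with its standard error for the tested genes of 3 nuclear lists, in red where past the threshold and in grey where not. SIG5 at 0.73 is the only red point above 0 in the transcription list, the RNA maturation list has none above 0, and the photosynthesis list has 4, led by RBCS1A at 2.07.

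The other markers of tissue were less clear. Of the seed markers SESA1, a 2S albumin gene, was higher (log2 fold change 2.39 ± 0.36, limma adjusted p = 0.00422) and the other 5 did not pass. Of those 5, EM6 was lower without overlap, at 17985, 10136 and 11915 in asf1a1b against 20972, 23984 and 18819 in Col-0 (-0.71 ± 0.35, limma adjusted p = 0.157). The seed coat markers BAN, TT12 and TT10 were at or near 0 in both genotypes, at most 0.242 rescaled TPM in asf1a1b and 0.124 in Col-0. The endosperm gene EPR1 stood at 9449, 9229 and 11131 in asf1a1b and 6904, 10323 and 9833 in Col-0, with overlap.

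The authors' deposited table lists 44 of the 133 plastid genes and marks 16 of them up, 0 down and 28 not significant, which is 36.4% up, where 6.23% of its 15257 genes are marked up and 2.52% down. In the authors' deposited table the log2 fold change is positive for 43 of the 44, with petB highest at 3.13, and rpoB is the exception at -0.70. The smallest fold change marked up anywhere in the authors' deposited table is 1.5, and psbA is marked up there with an adjusted p of 0.0658.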

How the data were processed

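RNA from fresh seeds was sequenced in 3 asf1a1b and 3 Col-0 libraries, grouped and numbered by their titles. The submitters' processing notes name fastp 0.23.4, HISAT2 2.2.1 and TAIR10. How RNA was selected, counted, annotated and assigned to strands is not given in the sources used here. Per the file headers and names, the deposited unit is a signal called TPM. Library totals of 915125.8 to 1049698.3 show a further scaling between libraries, hence "rescaled TPM". The log2 fold changes, p-values and adjusted p-values of the authors' deposited comparison table are used only where named. No column of another sample was present.

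Genes were tested with limma 3.58.1 (R 4.3.3), using lmFit and a trended eBayes, two-sided, on log2(value + 1), which understates changes of low genes. Tested genes averaged 1 or more across the 6 libraries. On simulated data for asf1a1b against Col-0 with 14663 genes, 61 of 100 genes changed by 1 on the log2 scale and 96 of 100 changed by 2 were recovered, with 6 calls among unchanged genes. Genes were simulated independently and few were changed, so these rates do not carry over to plastid genes that shift together between libraries. Reads were recovered as value times exon length over a step per library. Of nuclear values under 200 reads, the share within 0.1 of a whole number was 99.31% to 99.42%. Sums, intervals and plots used Python 3.11.15 with scipy 1.17.1, numpy 2.4.6, matplotlib 3.10.9 and pandas 2.3.3.

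The files pair no names with the plastid identifiers. Names follow the standard order of the plastid genome. For 111 of 133 identifiers the RefSeq (TAIR10.1) exon length of the named gene gave whole reads in all 6 libraries, within 0.02, and for 66 of these no other plastid length did. Lengths of 21 (among them matK, rrn5, ndhB, ndhD and the intron-containing tRNA genes) were fitted as the shortest that gives whole reads, so those names were not checked by length, and 1 identifier has no reads. Positions are those of RefSeq TAIR10.1.

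The members, roles, polymerase classes and nuclear lists were chosen with earlier results of these data known. By rule, values per library are given for the 10 most abundant genes, the 8 largest changes past the threshold averaging 5 or more in the higher genotype, and psbA, rbcL, accD, clpP, ycf1, ycf2, rpoB, psaA, psbD, atpB, ndhF, rrn16 and rrn23. The other plastid genes printed with values per library, such as trnW, trnK, psbE, rps14, rpoA and psbM, were chosen after their values were seen. Deviations of same-numbered libraries from their genotype means correlated at 0.427, 0.144 and 0.327 for replicates 1, 2 and 3 across all tested genes. Those of asf1a1b replicate 2 and Col-0 replicate 3 correlated at 0.381, and those of asf1a1b replicate 3 and Col-0 replicate 2 at 0.0999. These values do not settle how replicates 2 and 3 pair, and the labels name no common batch. The numbers were used as pairs on that footing, and p-values with the block rest on it. Alternatives were the replicate block, other pseudocounts, filters, scalings and error models, summed repeat copies and each library left out.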

Additional observations from a re-analysis of the deposited data

How the results depend on the processing

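The number of plastid genes higher in asf1a1b was 33 as reported. It became 11 with a mean of at least 5 required (26 plastid genes tested). With that filter 12.4% of all tested genes were higher and 13.4% lower. The number was 62 with the replicate block and 0 with the same plastid total. By alternatives added after seeing the data, it was 15 with factors over plastid protein-coding genes and 69 without both replicate 1 libraries. Leaving out 1 library in turn gave 8 to 55. It stayed within 28 to 32 with the pseudocount of 0.1, no filter, no trend, limma-voom, summed copies and the 3 other scalings. The number lower was 0, and became 9 with the same plastid total, 1 with factors over plastid protein-coding genes and 1 without both replicate 1 libraries.

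With the same plastid total, the log2 fold changes of psbD, atpB, clpP, the operon trnI copies and copy 1 of trnA turned to -0.22, -0.25, -0.59, -0.71, -0.68 and -0.33, as that scaling removes the shared rise. The nuclear transcription list kept 1 gene higher, but 0 with a mean of at least 5, and its lower genes numbered 9 and ranged from 4 to 10 with 1 library left out. The nuclear RNA maturation list had 0 genes higher, and 1 with limma-voom, with a mean of at least 5, with no filter and with the replicate block. Its lower genes numbered 9, but 5 with a mean of at least 5, and 3 to 10 with 1 library left out. The nuclear photosynthesis list had 4 genes higher, and 1 with a mean of at least 5. With that mean required, 12.4% of all tested genes were higher and 13.4% lower. The plastid total stayed between 1.32 and 1.92 as a log2 ratio of means under every scaling of the whole library and with any 1 library left out. Low counts limit the smallest genes, and the 3 libraries per genotype limit the rest.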
